A study of Mus musculus with 31 samples.

Results

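This account describes, gene by gene, how the response of heart cDC1 to myocardial infarction (MI) differed from the response of heart cDC2. For each gene the change from the steady state (SS) to MI in cDC2 was taken away from the same change in cDC1. The 15 libraries labelled cDC1 or cDC2, of 31 in the series, enter this difference of differences, and 13039 of 24421 genes had enough reads to be tested. Mice were of the Balb/c strain and 8 to 12 weeks old, their hearts were digested with enzymes, and the FACS-sorted cells were measured by RNA sequencing of amplified cDNA.

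The 4 groups are cDC1 from infarcted hearts (MI cDC1, 4 libraries), cDC1 from steady state hearts (SS cDC1, 4 libraries), cDC2 from infarcted hearts (MI cDC2, 3 libraries) and cDC2 from steady state hearts (SS cDC2, 4 libraries). MI was made by tying off the left anterior descending coronary artery for good, so the tissue it supplies dies without reperfusion. The labels name neither the interval from ligation to harvest, nor the antibodies of the sort, nor the sex of the animals. The design text calls the replicates independent without saying whether each is 1 animal or a pool of hearts, so p-values measure the spread between samples. No sham operation is named, and surgery or any other difference in preparation between SS and MI hearts cannot be told apart from MI itself. The series' title names the question as activation of dendritic cells by infarction and the priming of autoreactive T cells.

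Conventional dendritic cells take up material from tissue, carry it to lymph nodes and present it to T cells. The cDC1 lineage depends on the transcription factors Irf8 and Batf3, carries the receptors Xcr1 and Clec9a, and is known for presenting material from dead cells to CD8 T cells. The cDC2 lineage depends on Irf4, carries Sirpa and lectins such as Cd209a and Clec10a, and is known for activating CD4 T cells and for producing inflammatory cytokines.

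The labels fit the lineage markers. The summed level of 10 cDC1 markers was 13726 to 14588 CPM (read counts scaled to a common library total) in MI cDC1 and 11757 to 13193 CPM in SS cDC1, against 974.7 to 1089 CPM in MI cDC2 and 1024 to 1199.8 CPM in SS cDC2. The sum of 8 cDC2 markers was 68.8 to 79.5 CPM in MI cDC1 and 231 to 271 CPM in SS cDC1, against 5394 to 6335 CPM in MI cDC2 and 4966 to 6729 CPM in SS cDC2. Reads in genes numbered 9389786 to 16531349 per library. The share of reads in no annotated gene ranged over 6.42% to 14.9% and was highest in the SS libraries numbered 1 and 4 of both cell types. Coordinates of genes are those of the GENCODE annotation on GRCm38.p6, and promoters are those of RefSeq.

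The MI effect differed between cDC1 and cDC2 in 549 genes, 4.21% of those tested (edgeR quasi-likelihood test, Benjamini-Hochberg adjusted p under 0.05). It was higher in cDC1 for 209 genes (1.60%) and lower in cDC1 for 340 (2.61%), and 142 and 287 of these differed by at least 2-fold. The median log2 difference over all tested genes was -0.02. Called shares and medians of the gene lists below stand beside these shares and this median of all tested genes. For 154 of the 340 lower genes the level fell after MI in cDC1 while the change in cDC2 was not called, and for 117 it rose in cDC2 while the change in cDC1 was not called. Of the 209 higher genes, 132 fell in cDC2 and were not called in cDC1, and 35 rose in cDC1 and were not called in cDC2. In 48 genes MI was called in opposite directions, 31 of them down in cDC1 and up in cDC2 and 17 up in cDC1 and down in cDC2. For comparison, MI against SS alone called 1157 genes in cDC1 (281 up, 2.16%, and 876 down, 6.72%) and 1440 in cDC2 (575 up, 4.41%, and 865 down, 6.63%). With the summed markers of vessel cells and fibroblasts, mostly the marker Gsn, as a covariate, 45 of the 82 genes named by rule were no longer called. These, and the other called list members that lost the call, are listed with those markers. In bulk libraries fewer cells of a type and less RNA of a gene per cell cannot be told apart.

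**Figure D1:**
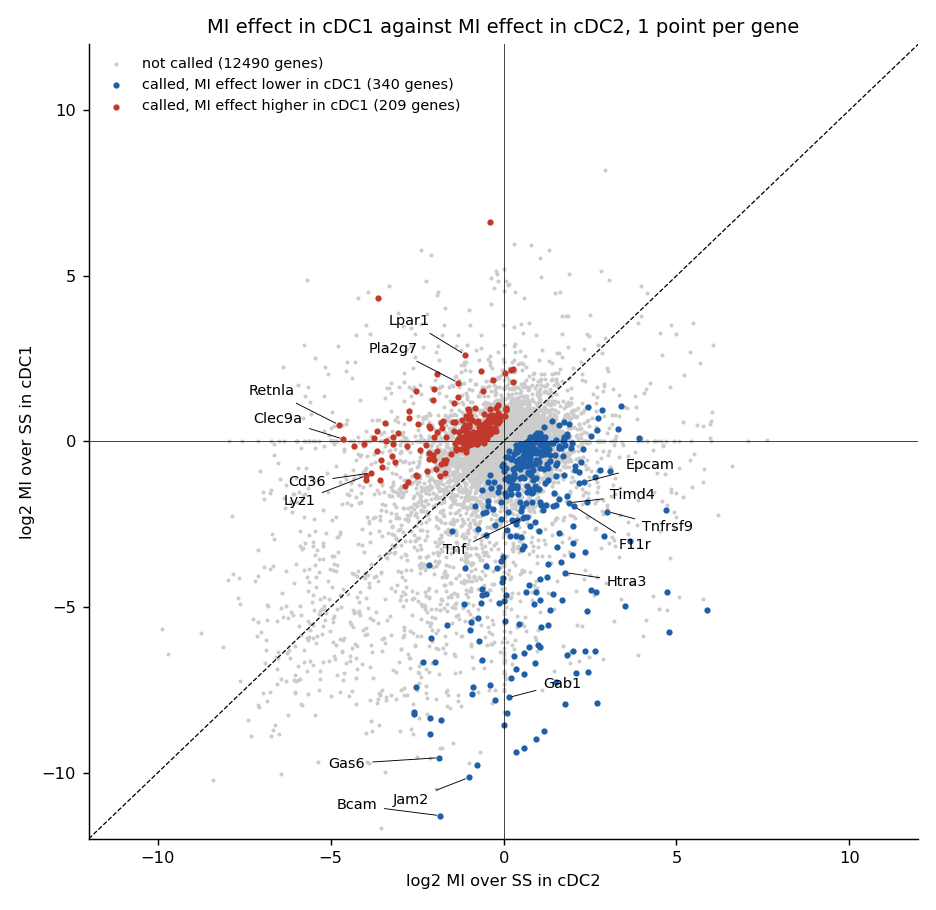
Log2 change of MI over SS in cDC2 (horizontal axis) against that in cDC1 (vertical axis), 1 point per tested gene, with the dashed line where both changes are equal. The 340 genes with a lower MI effect in cDC1 lie below the line and the 209 with a higher one above it, and points such as F11r and Pla2g7 lie on opposite sides of both zero lines.

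The gene with the smallest adjusted p was F11r, which codes for the junctional adhesion molecule JAM-A on epithelia, endothelia and leukocytes (chromosome 1, 171437535 to 171464603 plus strand). F11r had 26.2, 26.8, 19.7 and 19.0 CPM in MI cDC1, against 69.0, 108, 86.5 and 92.8 CPM in SS cDC1, and 338, 369 and 402 CPM in MI cDC2, against 81.6, 98.3, 91.7 and 90.0 CPM in SS cDC2. Both cell types stood at about the same level in the steady state, and after MI every cDC1 library was below and every cDC2 library above its SS counterparts. It fell 3.88-fold in cDC1 and rose 4.09-fold in cDC2, a log2 difference of -3.99 ± 0.26 (SE, edgeR adjusted p = 5.47e-12). Timd4, a phosphatidylserine receptor for apoptotic cells (chromosome 11, 46810800 to 46844332 plus strand), had 74.7, 57.1, 50.9 and 60.6 CPM in MI cDC1, against 177, 265, 219 and 219 CPM in SS cDC1, and 109.7, 131 and 75.7 CPM in MI cDC2, against 11.3, 28.8, 47.4 and 26.4 CPM in SS cDC2. After MI the order of the cell types was turned round, with every MI cDC2 library above every MI cDC1 library. Its log2 difference was -3.74 ± 0.46 (edgeR adjusted p = 7.91e-06). Epcam, an epithelial adhesion molecule that some dendritic cells carry (chromosome 17, 87635979 to 87651129 plus strand), showed the same turn, with 22.6, 15.6, 15.4 and 12.7 CPM in MI cDC1, against 26.9, 34.5, 49.4 and 44.7 CPM in SS cDC1, and 55.5, 80.7 and 55.6 CPM in MI cDC2, against 11.6, 10.3, 9.96 and 19.0 CPM in SS cDC2. No library of either cell type overlapped between MI and SS, and the log2 difference was -3.56 ± 0.51 (edgeR adjusted p = 4.10e-05).

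Further genes fell in cDC1 and rose in cDC2. Mfge8, whose secreted product bridges apoptotic cells to phagocytes, averaged 6.06 ± 0.438 CPM in MI cDC1 and 33.0 ± 13.4 CPM in SS cDC1, with 94.3 ± 9.23 CPM in MI cDC2 and 50.6 ± 6.04 CPM in SS cDC2 (SD, n = 4, and 3 in MI cDC2, as for all means below; log2 difference -3.34 ± 0.30, edgeR adjusted p = 6.20e-09). Ctnnd1, coding for the p120 catenin that holds cadherins at the membrane, averaged 29.2 ± 2.25 CPM in MI cDC1 and 74.4 ± 15.5 CPM in SS cDC1, with 63.2 ± 8.69 CPM in MI cDC2 and 39.9 ± 8.90 CPM in SS cDC2 (log2 difference -2.01 ± 0.25, adjusted p = 5.30e-06). The MI and SS libraries of these genes did not overlap in either cell type. Ccnd1, which codes for cyclin D1, had a log2 difference of -1.63 ± 0.30 (edgeR adjusted p = 7.32e-04), with a log2 change of -0.93 in cDC1 and 0.70 in cDC2. It was the only gene called among 40 cell cycle genes (2.50%), whose median log2 difference was -0.18. Htra3, a secreted serine protease, stayed at or under 0.307 CPM in the MI cDC1 libraries, against 2.1, 2.27, 0.794 and 1.56 CPM in SS cDC1, and had 115, 136 and 126 CPM in MI cDC2, against 36.7, 36.7, 29.9 and 41.8 CPM in SS cDC2. Its rise in cDC2 was large in reads, while its fall in cDC1 was between low levels. The log2 difference was -5.75 ± 0.50 (edgeR adjusted p = 2.61e-09), and -7.07 without MI cDC1 replicate 4.

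The opposite pattern, up in cDC1 and down in cDC2, was led by Pla2g7, which codes for the acetylhydrolase that inactivates platelet-activating factor (chromosome 17, 43568098 to 43612201 plus strand). Pla2g7 had 27.5, 34.6, 25.3 and 24.1 CPM in MI cDC1, against 7.03, 9.0, 10.1 and 6.63 CPM in SS cDC1, and 273, 171 and 241 CPM in MI cDC2, against 577, 625, 613 and 446 CPM in SS cDC2. The level stayed far higher in cDC2, but the gap between the cell types was smaller after MI, and no library overlapped between MI and SS. Its log2 difference was 3.08 ± 0.23 (edgeR adjusted p = 7.52e-11). Lpar1, a receptor for lysophosphatidic acid (chromosome 4, 58435255 to 58553898 minus strand), had 23, 30.8, 25.0 and 14.8 CPM in MI cDC1, against 1.5, 4.45, 5.26 and 4.19 CPM in SS cDC1, and 6.78, 12.4 and 14 CPM in MI cDC2, against 16.0, 21.0, 26.6 and 32.4 CPM in SS cDC2. It was above SS in every MI cDC1 library and below SS in every MI cDC2 library (log2 difference 3.74 ± 0.47, edgeR adjusted p = 7.91e-06). Pparg, a nuclear receptor of lipid metabolism (chromosome 6, 115360951 to 115490399 plus strand), averaged 15.6 ± 2.85 CPM in MI cDC1 and 6.95 ± 1.81 CPM in SS cDC1, with 21.4 ± 5.72 CPM in MI cDC2 and 58.4 ± 22.4 CPM in SS cDC2 (log2 difference 2.62 ± 0.33, edgeR adjusted p = 7.91e-06). Sgms1, a sphingomyelin synthase, rose 1.49-fold in cDC1 and fell 2.78-fold in cDC2 (log2 difference 2.05 ± 0.26, adjusted p = 7.91e-06). Dpy19l3, which adds mannose to tryptophan residues of secreted proteins, rose 2.96-fold in cDC1 and fell 4.07-fold in cDC2 (log2 difference 3.59 ± 0.60, adjusted p = 3.83e-04).

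**Figure D2:**
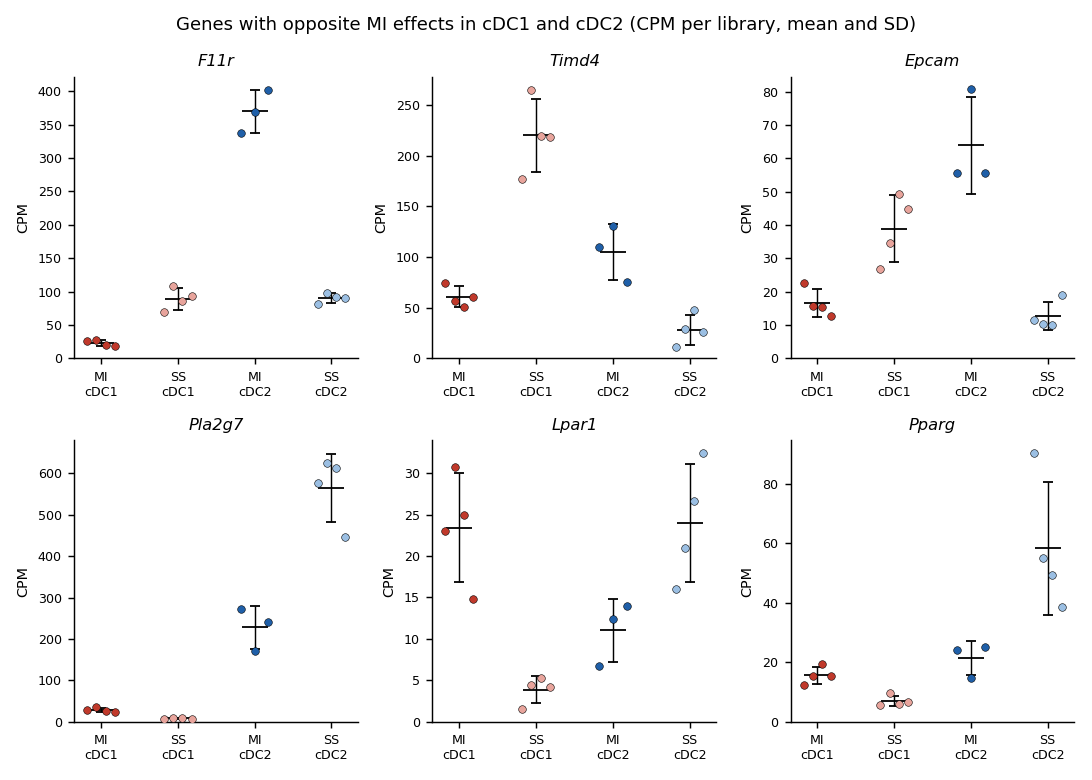
Levels in CPM (linear axes from 0) of 6 genes with opposite MI effects, 1 point per library, with the mean and SD of each group (n = 4, and 3 in MI cDC2). F11r, Timd4 and Epcam are low in MI cDC1 and high in MI cDC2 relative to SS, and Pla2g7, Lpar1 and Pparg show the reverse.

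Among 28 genes of the NF-kB pathway, the signalling route that turns on inflammatory genes and its own inhibitors, 7 had a lower MI effect in cDC1, 1 a higher one and 20 were not called. The called share was 28.6% of the list, beside 4.21% of all tested genes, and the median log2 difference was -0.61, beside -0.02. In cDC1 12 of the 28 fell after MI and 0 rose, while in cDC2 3 rose and 4 fell. Sequences are shown here for Nfkbia and Tnfaip3, inhibitors of the pathway with a called difference, because their promoters hold an NF-kB-like motif (GGG, any 2 bases, then TTTCC), which was searched on both strands from 250 bases before to 50 bases after each start site. Each is given 5′ to 3′ on the gene's own strand as RefSeq has it on GRCm38.p6, a C57BL/6J genome and not that of the Balb/c mice, with the match in capitals, which here shows the motif's other strand. The Nfkbia promoter is chr12:55492598-55492897 (minus strand) and the Tnfaip3 promoter is chr10:19015361-19015660 (minus strand).
Nfkbia: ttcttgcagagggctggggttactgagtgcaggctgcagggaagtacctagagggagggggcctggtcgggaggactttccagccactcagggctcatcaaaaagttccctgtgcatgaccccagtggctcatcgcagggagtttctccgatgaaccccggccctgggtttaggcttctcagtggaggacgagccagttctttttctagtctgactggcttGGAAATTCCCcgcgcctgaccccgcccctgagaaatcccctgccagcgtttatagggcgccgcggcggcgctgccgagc
Tnfaip3: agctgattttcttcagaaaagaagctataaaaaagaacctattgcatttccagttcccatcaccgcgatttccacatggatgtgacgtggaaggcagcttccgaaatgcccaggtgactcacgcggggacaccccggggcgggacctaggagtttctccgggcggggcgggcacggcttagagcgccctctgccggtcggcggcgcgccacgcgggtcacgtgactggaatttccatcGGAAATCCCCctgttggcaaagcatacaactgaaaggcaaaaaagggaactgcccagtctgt
The first base of the match lies at -29 from the start site in Nfkbia and at -12 in Tnfaip3. The motif occurs in 438 of 27025 promoters in the table (1.62%), in 4 of the 23 list promoters found there and in 2 of the 6 found for called members. A match is a description of these letters and was not tested as a binding site.

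Tnf, the cytokine that both drives and answers NF-kB (chromosome 17, 35199381 to 35202007 minus strand), had 7.71, 12.1, 10.1 and 6.25 CPM in MI cDC1, against 45.3, 44.0, 38.8 and 52.2 CPM in SS cDC1, and 114, 85.7 and 102 CPM in MI cDC2, against 69.4, 66.7, 57.2 and 79.9 CPM in SS cDC2. The MI libraries were below SS in cDC1 and above SS in cDC2 with no overlap. The fall in cDC1 was called (4.97-fold), the change in cDC2 was not (adjusted p = 0.112), and the difference was -2.87 ± 0.32 (edgeR adjusted p = 1.17e-06). Nfkbia, coding for the inhibitor IkB-alpha (chromosome 12, 55489410 to 55492647 minus strand), had 279, 267, 206 and 204 CPM in MI cDC1, against 687, 745, 532 and 619 CPM in SS cDC1, and 1742, 1517 and 1735 CPM in MI cDC2, against 1144, 1571, 1581 and 1539 CPM in SS cDC2. Its fall in cDC1 was 2.70-fold with no overlap, the cDC2 groups overlapped, and the log2 difference was -1.62 ± 0.21 (edgeR adjusted p = 7.91e-06). Nfkbiz, coding for the nuclear regulator IkB-zeta, had 37.2, 42.0, 17.2 and 27.5 CPM in MI cDC1, against 158, 195, 92.8 and 159 CPM in SS cDC1, and 1197, 1396 and 969 CPM in MI cDC2, against 727, 708, 712 and 992 CPM in SS cDC2. It fell 4.89-fold in cDC1, was not called in cDC2, and had a log2 difference of -2.89 ± 0.38 (edgeR adjusted p = 1.80e-05).

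The other called members of the pathway also had a lower MI effect in cDC1, with 1 exception. Nfkbid, another nuclear IkB protein, had a log2 difference of -2.32 ± 0.36 (edgeR adjusted p = 1.06e-04) and averaged 17.7 ± 1.88 CPM in MI cDC1 and 63.5 ± 19.2 CPM in SS cDC1, with 266 ± 4.92 CPM in MI cDC2 and 191 ± 47.7 CPM in SS cDC2. Tnfaip3, the ubiquitin-editing inhibitor A20, fell in cDC1 (log2 change -0.70) and rose in cDC2 (0.65), and its log2 difference was -1.35 ± 0.28 (adjusted p = 0.00247). Nfkb1, the p105 and p50 subunit gene, rose in cDC2 and was not called in cDC1 (log2 difference -1.16 ± 0.27, adjusted p = 0.00826). Ptgs2, the prostaglandin synthase COX-2, also rose in cDC2, and its log2 difference of -1.55 ± 0.45 was called by a narrow margin (adjusted p = 0.0496). It passed in only 4 of the 15 fits that left out 1 library, those without MI cDC1 replicate 1, SS cDC1 replicate 1 or 3 or SS cDC2 replicate 4, with adjusted p up to 0.154. Sod2, the mitochondrial superoxide dismutase, was the exception, with a higher MI effect in cDC1 (0.68 ± 0.19, adjusted p = 0.0297). It did not pass in 6 such fits, those without MI cDC2 replicate 2, MI cDC1 replicate 3 or 4, SS cDC1 replicate 1 or SS cDC2 replicate 2 or 3 (adjusted p 0.0554 to 0.0941). The subunit genes Nfkb2 (-0.73 ± 0.28, adjusted p = 0.149) and Relb (-0.98 ± 0.42, adjusted p = 0.223) were not called.

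**Figure D3:**
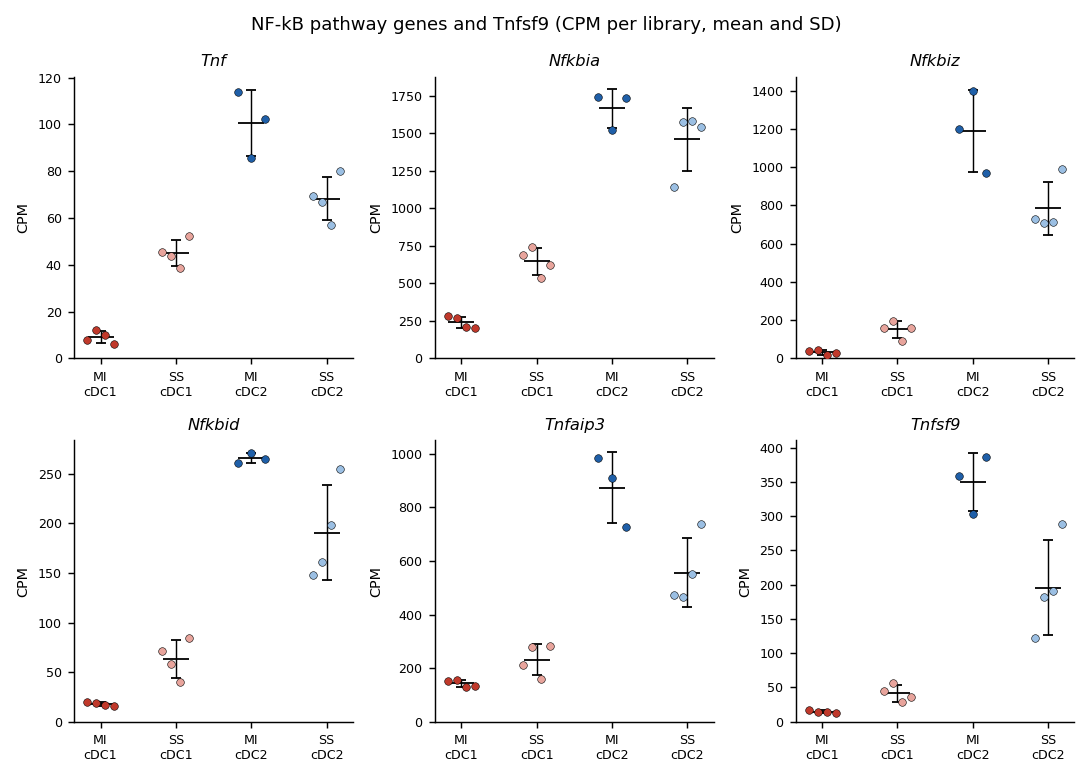
Levels in CPM (linear axes from 0) of 5 NF-kB pathway genes and of the ligand gene Tnfsf9, 1 point per library, with the mean and SD of each group (n = 4, and 3 in MI cDC2). In all 6 panels every MI cDC1 library lies below every SS cDC1 library, and the MI cDC2 mean lies above the SS cDC2 mean.

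Few genes of dendritic cell maturation and migration were called, though most had a negative log2 difference. Of 36 members tested, 32 had a negative log2 difference and the median was -1.49, beside -0.02 for all genes. The call was reached by 4 members, all lower in cDC1 (11.1%, beside 4.21% of all genes). An unadjusted edgeR p under 0.05 was reached by 21 of the 36, beside 2129 of all 13039 tested genes. DESeq2 called 6 members lower and limma-voom 5. Tnfrsf9, the costimulatory receptor 4-1BB, had 2.16, 2.76, 1.21 and 1.23 CPM in MI cDC1, against 9.19, 7.01, 12.3 and 3.51 CPM in SS cDC1, and 46.3, 22.1 and 13.5 CPM in MI cDC2, against 0.196, 1.60, 8.43 and 3.46 CPM in SS cDC2. The MI libraries were all below SS in cDC1 and all above SS in cDC2, though only the rise in cDC2 was called. Its log2 difference was -5.12 ± 1.10 (edgeR adjusted p = 0.00469), -4.50 without MI cDC2 replicate 1 and -6.06 without SS cDC2 replicate 3. Ccl5, a chemokine for T cells, fell 5.93-fold in cDC1 and was not called in cDC2 (log2 difference -3.34 ± 0.78, adjusted p = 0.00994), with overlapping libraries in both. The value was -4.31 without MI cDC1 replicate 1 and -3.98 without SS cDC2 replicate 3. Ebi3, a subunit of interleukin 27, fell in cDC1 (log2 difference -0.96 ± 0.25, adjusted p = 0.0225). Its call was lost without MI cDC1 replicate 2 (adjusted p = 0.0603), MI cDC2 replicate 2 (0.0912) or SS cDC2 replicate 2 (0.0539).

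The defining genes of mature migratory cells were not called and varied widely between libraries of 1 group. Ccr7, the receptor that leads dendritic cells to lymph nodes, had 411, 184, 123 and 81.6 CPM in MI cDC1, against 211, 844, 525 and 149.9 CPM in SS cDC1, and 1039, 535 and 412 CPM in MI cDC2, against 67.3, 359, 928 and 324 CPM in SS cDC2. The groups overlapped in both cell types, and the log2 difference of -1.77 ± 1.06 was not called (edgeR adjusted p = 0.435). Fscn1, the actin-bundling protein fascin of mature dendritic cells, had 214, 103, 39.4 and 31.3 CPM in MI cDC1, against 119, 504, 348 and 89.7 CPM in SS cDC1, and 786, 246 and 159 CPM in MI cDC2, against 22.4, 40.1, 206 and 64.0 CPM in SS cDC2. Its log2 difference of -3.71 ± 1.14 missed the threshold (adjusted p = 0.0670). In both genes replicate 1 was the highest MI library of both cell types, replicate 2 was the highest SS library in cDC1, and replicate 3 was the highest SS library in cDC2. Ccl22 (-2.23 ± 1.11, adjusted p = 0.324), Cd40 (-0.78 ± 0.36, adjusted p = 0.255) and Il12b (-1.57 ± 1.21, adjusted p = 0.578) were not called either.

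Of 21 costimulatory and coinhibitory ligands, 4 had a lower MI effect in cDC1, 0 a higher one and 17 were not called. The called share was 19.0%, beside 4.21% of all genes, and the median log2 difference was -0.62. Tnfsf9, the ligand of 4-1BB (chromosome 17, 57105325 to 57107757 plus strand), had 17.8, 14.6, 13.6 and 12.9 CPM in MI cDC1, against 44.4, 56.6, 28.6 and 35.5 CPM in SS cDC1, and 358, 304 and 386 CPM in MI cDC2, against 123, 181, 190.4 and 288 CPM in SS cDC2. It was down in cDC1 and up in cDC2 with no overlap (log2 difference -2.32 ± 0.31, edgeR adjusted p = 1.32e-05). Icosl, the ligand of the T cell receptor ICOS, fell 2.55-fold in cDC1 and was not called in cDC2 (log2 difference -1.74 ± 0.36, adjusted p = 0.00263). Tnfsf8, the CD30 ligand, fell 8.87-fold in cDC1 to 0.642 CPM, against 5.79 CPM in SS cDC1 (log2 difference -3.74 ± 0.90, adjusted p = 0.0111). Cd86, the ligand of CD28 and CTLA-4, had 449, 418, 423 and 479 CPM in MI cDC1, against 465, 463, 466 and 454 CPM in SS cDC1, and 216, 221 and 178 CPM in MI cDC2, against 96.6, 128, 130.4 and 116 CPM in SS cDC2. It rose in cDC2 and was not called in cDC1, where it stood higher in every library than in any cDC2 library. The log2 difference was -0.86 ± 0.24 (edgeR adjusted p = 0.0366), and it passed in only 5 of the 15 fits that left out 1 library, those without MI cDC2 replicate 3, MI cDC1 replicate 4, SS cDC2 replicate 2 or 3 or SS cDC1 replicate 4 (adjusted p up to 0.0890 in the others).

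Of 32 type I interferon response genes, 3 had a higher MI effect in cDC1 and 0 a lower one (9.38% called, beside 4.21% of all genes), and the other 29 were not called. The log2 difference was positive in 19 and negative in 13, with a median of 0.09, beside -0.02 for all genes. Irf7, the transcription factor that amplifies the interferon response (chromosome 7, 141262706 to 141266481 minus strand), had 415, 336, 398 and 417 CPM in MI cDC1, against 209.6, 316, 290.0 and 225 CPM in SS cDC1, and 104, 80.3 and 129.6 CPM in MI cDC2, against 236, 213, 171 and 116 CPM in SS cDC2. Irf7 rose in cDC1 with no overlap and fell in cDC2, where 1 MI library overlapped SS (log2 difference 1.40 ± 0.27, edgeR adjusted p = 0.00152). Zbp1, a sensor of nucleic acids in the Z form, had 49.2, 55.0, 62.6 and 56.8 CPM in MI cDC1, against 39.6, 39.7, 34.5 and 26.6 CPM in SS cDC1, and 25.9, 16.7 and 32.8 CPM in MI cDC2, against 54.1, 68.8, 42.2 and 39.6 CPM in SS cDC2. It rose in cDC1 and fell in cDC2 without overlap (log2 difference 1.69 ± 0.31, adjusted p = 7.14e-04). Oasl1, an antiviral gene that in mice limits the translation of Irf7, fell 4.06-fold in cDC2 and was not called in cDC1 (log2 difference 1.45 ± 0.34, adjusted p = 0.00827). Ifit1 (-1.05 ± 0.44, adjusted p = 0.200), Ifit3 (-0.48 ± 0.42, adjusted p = 0.646) and Isg15 (0.22 ± 0.38, adjusted p = 0.851) were not called, and Ifit1 and Ifit3 rose in cDC2. Of 24 interferon gamma GTPases and Irf1, 1 gene was called, the GTPase Ifi47 (log2 difference 0.85 ± 0.25, edgeR adjusted p = 0.0417), 4.17% of the list, beside 4.21% of all genes. Of these 24, 12 had a positive and 12 a negative log2 difference, with a median of 0.04, or -0.03 with genes at 0 reads in a group set to 3 reads, and limma-voom called 0, with 2 at an unadjusted p under 0.05 in either tool. Ifi47 was called in only 2 of the 15 fits that left out 1 library, those without MI cDC1 replicate 2 or SS cDC1 replicate 3, with adjusted p up to 0.0957.

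Genes of cDC1 identity were the list with the largest called share, 39.1% of 23, beside 4.21% of all genes. The MI effect was higher in cDC1 for 8 of them and lower for 1 (median log2 difference 0.26). In cDC1 0 of the 23 rose and 1 fell after MI, while in cDC2 8 fell and 1 rose. Clec9a, the receptor for actin filaments exposed by dead cells (chromosome 6, 129408862 to 129424763 plus strand), had 195, 184, 199.8 and 207 CPM in MI cDC1, against 201, 182, 194 and 173 CPM in SS cDC1, and 0, 0.397 and 0.771 CPM in MI cDC2, against 10.9, 10.2, 9.74 and 8.70 CPM in SS cDC2. The cDC1 groups overlapped, and the cDC2 groups lay apart at levels far under those of cDC1. The log2 difference was 4.70 ± 0.79 (edgeR adjusted p = 4.20e-04), and 5.66 without MI cDC2 replicate 3. Cd36, a scavenger receptor for lipids and dying cells (chromosome 5, 17781690 to 17888801 minus strand), fell in both cell types, 1.94-fold in cDC1 and 14.3-fold in cDC2. It averaged 676 ± 72.9 CPM in MI cDC1 and 1310.2 ± 108 CPM in SS cDC1, with 20.4 ± 3.27 CPM in MI cDC2 and 292 ± 96.9 CPM in SS cDC2 (log2 difference 2.89 ± 0.37, adjusted p = 1.15e-05). The lineage factors Batf3 (1.18 ± 0.28, adjusted p = 0.0105) and Id2 (1.01 ± 0.25, adjusted p = 0.0114) were at log2 changes of -0.01 and 0.00 in cDC1 and fell by 1.19 and 1.01 on the log2 scale in cDC2.

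The remaining called cDC1 identity genes were the lysosomal amidase gene Naaa (0.68 ± 0.16, edgeR adjusted p = 0.00753), the receptor gene Tlr11, the exchange factor gene Fgd6 (2.17 ± 0.58, adjusted p = 0.0263) and the endosomal GTPase gene Rab7b (1.12 ± 0.31, adjusted p = 0.0342), with the adhesion gene Cadm1 lower (-1.19 ± 0.26, adjusted p = 0.00452) after a rise in cDC2. The call of Fgd6 was lost without MI cDC2 replicate 2 (adjusted p = 0.0586), MI cDC2 replicate 3 (0.0992) or SS cDC1 replicate 2 (0.0544). That of Rab7b was lost in 7 such fits, without MI cDC1 replicate 1 or 3, MI cDC2 replicate 1 or 2, SS cDC1 replicate 1 or SS cDC2 replicate 2 or 3 (adjusted p up to 0.130). The defining markers Xcr1 (0.26 ± 0.56, adjusted p = 0.895) and Irf8 (0.25 ± 0.19, adjusted p = 0.560) were not called. Xcr1 stood at 2.54, 3.77 and 3.27 CPM in MI cDC2, against 5.20, 2.98, 4.71 and 1.22 CPM in SS cDC2. The part of sorting purity in the fall of Clec9a in cDC2 was not tested.

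Toll-like receptor genes held 3 higher and 1 lower calls of 25 (16.0%, beside 4.21% of all genes, median log2 difference 0.07). Tlr11 and Tlr12, which in mice sense the profilin of protozoan parasites, both fell in cDC2 and were not called in cDC1. Tlr11 averaged 454 ± 39.5 CPM in MI cDC1 and 369 ± 63.6 CPM in SS cDC1, with 14.5 ± 7.09 CPM in MI cDC2 and 55.4 ± 9.39 CPM in SS cDC2 (log2 difference 2.23 ± 0.44, edgeR adjusted p = 0.00207). The log2 change of Tlr12 in cDC1 was 0.01, and it had 1.32, 0.694 and 3.56 CPM in MI cDC2, against 22.1, 17.6, 22.2 and 18 CPM in SS cDC2. The log2 difference of Tlr12 was 3.43 ± 0.67 (adjusted p = 0.00169), and 4.30 without MI cDC2 replicate 3. Myd88, the adaptor of most of these receptors, rose in cDC1 (316 ± 71.2 CPM in MI, 173 ± 17.2 CPM in SS) and was not called in cDC2 (log2 difference 1.03 ± 0.21, adjusted p = 0.00263). Tlr2, a receptor for bacterial lipoproteins, fell 2.22-fold in cDC1 and stood at 741 ± 112 CPM in MI cDC2 and 723 ± 90.4 CPM in SS cDC2 (log2 difference -1.19 ± 0.23, adjusted p = 0.00115).

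Genes of cDC2 identity had 0 higher and 4 lower calls of 27 (14.8%, beside 4.21% of all genes), 22 negative values and a median log2 difference of -0.79. Beside Epcam these were the lectin genes Cd209a and Clec10a and the interleukin 1 decoy receptor gene Il1r2. Cd209a had 3.19, 4.63, 3.71 and 1.95 CPM in MI cDC1, against 18, 25.0, 17.3 and 27.3 CPM in SS cDC1, and 2023, 2392 and 2765 CPM in MI cDC2, against 1844, 2428, 2282 and 2474 CPM in SS cDC2. The call came from cDC1, where the level is a small fraction of that in cDC2 (log2 difference -2.77 ± 0.53, edgeR adjusted p = 0.00187). Clec10a was at 0.617, 0, 0.0928 and 0.102 CPM in MI cDC1, against 0.601, 1.14, 0.694 and 1.75 CPM in SS cDC1 (log2 difference -2.95 ± 0.68, adjusted p = 0.00803, and -4.40 without MI cDC1 replicate 1). The summed cDC2 markers in cDC1 were lower after MI as well, as given with the lineage markers. Ltb4r1 alone made up 63.4% of that sum in MI cDC1 and 74.2% in SS cDC1. Without the Ltb4r1 reads it was 21.9 to 32.6 CPM in MI cDC1 and 55.9 to 69.4 CPM in SS cDC1. Sirpa averaged 1.68 CPM in MI cDC1 and 1.31 CPM in SS cDC1. The part of cDC2 among the sorted SS cDC1 in these values was not tested. Il1r2 rose in cDC2 to 87.8, 168 and 121 CPM in MI cDC2, against 16.6, 20.1, 22.2 and 21.3 CPM in SS cDC2 (log2 difference -3.73 ± 0.85, adjusted p = 0.00814). Sirpa (-0.35 ± 0.59, edgeR adjusted p = 0.851) and Irf4 (-1.02 ± 0.39, adjusted p = 0.156) were not called. Of 22 genes shared by dendritic cells 1 was called (4.55%, beside 4.21% of all genes, list median -0.30). It was the adhesion gene Amica1 (-0.61 ± 0.17, edgeR adjusted p = 0.0364). Amica1 passed in 5 of the 15 fits that left out 1 library, those without MI cDC2 replicate 1, MI cDC1 replicate 2, SS cDC2 replicate 1 or 4 or SS cDC1 replicate 2, with adjusted p up to 0.124 in the others.

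**Figure D4:**
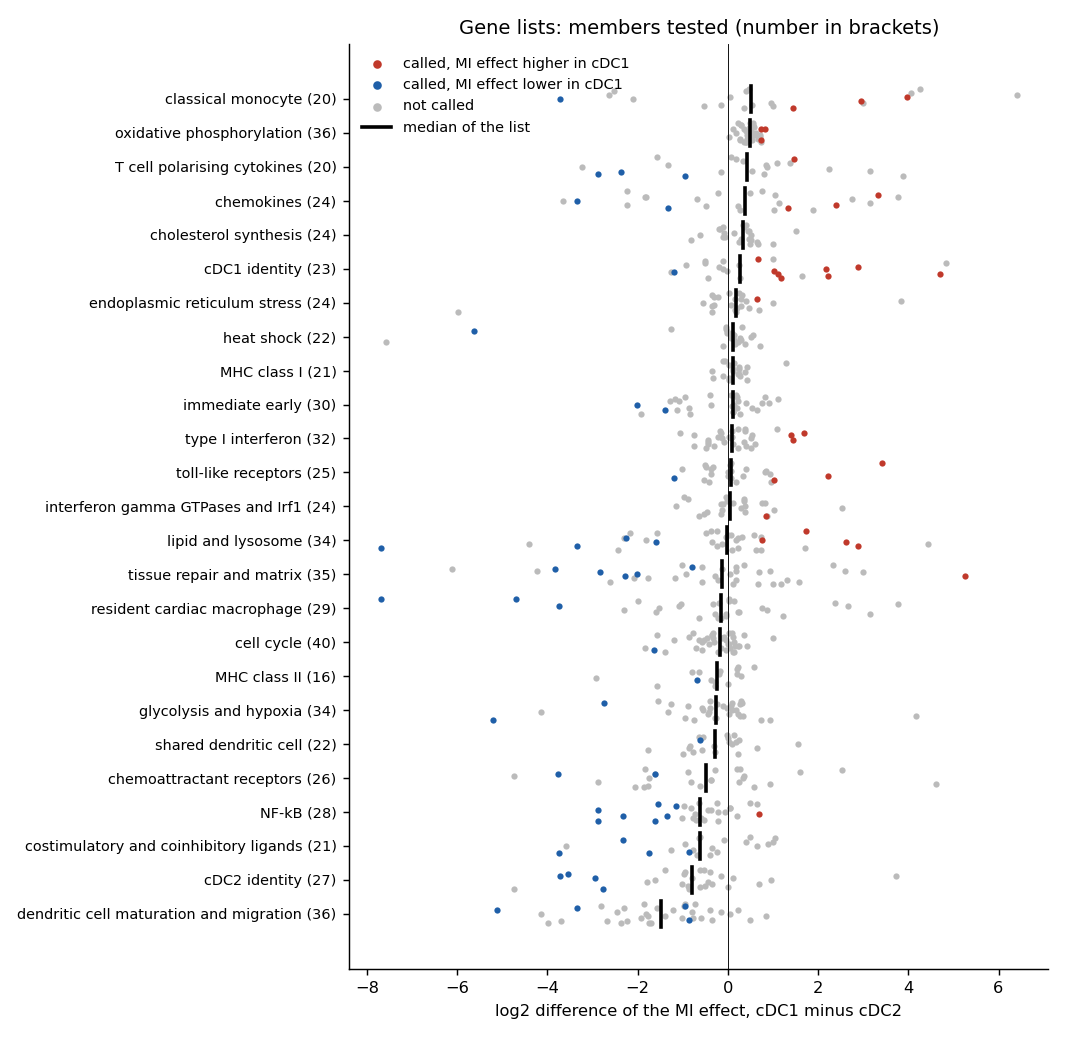
Log2 difference of the MI effect (cDC1 minus cDC2, horizontal axis) of every tested member of 25 gene lists, 1 point per gene, with a bar at each list's median. Medians run from 0.50 for classical monocyte genes to -1.49 for maturation genes, and most members of every list were not called.

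Several of the largest higher differences were genes of monocytes and macrophages that fell in cDC2. Retnla, the secreted RELM-alpha of alternatively activated macrophages (chromosome 16, 48842551 to 48844461 plus strand), had 0.308, 0, 3.34 and 0 CPM in MI cDC1, against 0.0601, 1.33, 1.39 and 0.195 CPM in SS cDC1, and 214, 96.7 and 197 CPM in MI cDC2, against 3422, 6317, 4872 and 3786 CPM in SS cDC2. It fell 27.2-fold in cDC2 with no overlap, while cDC1 held at most 3.34 CPM of it. Its log2 difference of 5.27 ± 1.26 (edgeR adjusted p = 0.0133) rests on MI cDC1 replicate 3, without which it was 2.17 (adjusted p = 0.791). Lyz1 and Lyz2, near-identical lysozyme genes whose reads may be split between them, fell in both cell types and more in cDC2. Lyz1 averaged 84.5 ± 18.5 CPM in MI cDC1 and 173 ± 20.9 CPM in SS cDC1, with 462 ± 179 CPM in MI cDC2 and 7252 ± 2222 CPM in SS cDC2 (log2 difference 2.94 ± 0.40, adjusted p = 2.20e-05). Lyz2 fell 2.07-fold in cDC1 and 5.65-fold in cDC2 (log2 difference 1.45 ± 0.27, adjusted p = 0.00106). Plac8, a gene of monocytes and other leukocytes, had 171, 253, 215 and 252 CPM in MI cDC1, against 78.6, 52.2, 47.3 and 36.8 CPM in SS cDC1, and 35.8, 123 and 124 CPM in MI cDC2, against 628, 462, 179 and 156 CPM in SS cDC2. Its rise in cDC1 was called, its lower level in MI cDC2 was not (adjusted p = 0.0556), and the difference was 3.96 ± 0.87 (adjusted p = 0.00717). With Il1r2 on the lower side, these made 3 higher and 1 lower calls of 20 classical monocyte genes (20.0%, median log2 difference 0.50, or 0.44 with genes at 0 reads in a group set to 3 reads).

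Fcrls, a receptor-like gene of macrophages, was at most 1.02 CPM in any cDC1 library and averaged 109.7 ± 30.9 CPM in MI cDC2 and 1399 ± 376 CPM in SS cDC2 (log2 difference 3.99 ± 1.14, edgeR adjusted p = 0.0424). That call passed in 5 of the 15 fits without 1 library, those without MI cDC1 replicate 2 or 4, MI cDC2 replicate 3, SS cDC2 replicate 1 or SS cDC1 replicate 4. Its value was 2.61 (adjusted p = 0.522) without MI cDC1 replicate 3 and 4.83 without SS cDC1 replicate 4. Ear2, an eosinophil-associated ribonuclease gene also read in monocytes, fell 6.72-fold in cDC2 (log2 difference 3.46 ± 0.60, adjusted p = 4.32e-04). Summed over 14 markers, macrophage transcripts were at 302 to 353 CPM in MI cDC1 and 593 to 638 CPM in SS cDC1, with 1271.5 to 1843 CPM in MI cDC2 and 2405 to 3830 CPM in SS cDC2. Summed over the 9 neutrophil markers found, they were at 1.33 to 2.36 CPM in MI cDC1 and 3.90 to 9.10 CPM in SS cDC1, with 21.6 to 35.6 CPM in MI cDC2 and 70.8 to 165 CPM in SS cDC2. The 9 monocyte markers summed to 3342 to 4218 CPM in MI cDC1 and 2677 to 3138 CPM in SS cDC1, with 3699.6 to 4453 CPM in MI cDC2 and 3570.1 to 5711 CPM in SS cDC2. Macrophage and neutrophil sums were lower in every MI cDC2 library than in any SS cDC2 library, and their part in the differences was not tested. Of the 14 macrophage markers 1 was called, Timd4.

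Among 29 genes of resident cardiac macrophages, 3 had a lower MI effect in cDC1 and 0 a higher one (10.3%, median log2 difference -0.15, or 0.04 with genes at 0 reads in a group set to 3 reads), namely Timd4, Gas6 and Stab1. Stab1, a scavenger receptor, was at 2 reads in all MI cDC1 libraries together, against 73 in SS cDC1, a ratio SS over MI of 31.0 (8.29 to 261) with its exact 95% interval. In cDC2 it had 28.8, 14.7 and 16.5 CPM in MI, against 12.4, 23.1, 22.1 and 18.1 CPM in SS, with overlap. The fitted difference was -4.71 ± 1.18 (edgeR adjusted p = 0.0181) and -7.10 without MI cDC1 replicate 3. Its call was lost without MI cDC1 replicate 2 (adjusted p = 0.0531) or 4 (0.0515) or SS cDC1 replicate 1 (0.0521) or 2 (0.0504).

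Chemokine genes divided between the cell types, with 3 higher and 2 lower calls of 24 (20.8%, beside 4.21% of all genes). Their median log2 difference was 0.38, or 0.62 with genes at 0 reads in a group set to 3 reads. Ccl7, a chemoattractant for monocytes (chromosome 11, 82045712 to 82047525 plus strand), had 9.97, 11, 12.0 and 12.6 CPM in MI cDC1, against 5.47, 4.17, 4.86 and 4.39 CPM in SS cDC1, and 2.73, 2.28 and 5.10 CPM in MI cDC2, against 12.7, 21.4, 11.2 and 11.1 CPM in SS cDC2. It rose in cDC1 and fell in cDC2 without overlap (log2 difference 3.32 ± 0.46, edgeR adjusted p = 1.80e-05). Its neighbour in function Ccl2 had 19.6, 21.0, 23.4 and 20.5 CPM in MI cDC1, against 18.5, 19.1, 6.85 and 9.94 CPM in SS cDC1, and 23, 18.4 and 15.6 CPM in MI cDC2, against 57.1, 81.7, 55.5 and 64.1 CPM in SS cDC2. Only the fall in cDC2 was called (log2 difference 2.39 ± 0.36, adjusted p = 5.97e-05). Ccl6, a chemokine of myeloid cells, fell in both and averaged 110.1 ± 13.9 CPM in MI cDC1 and 204 ± 3.35 CPM in SS cDC1, with 673 ± 103 CPM in MI cDC2 and 3148 ± 783 CPM in SS cDC2 (log2 difference 1.33 ± 0.34, adjusted p = 0.0179). That call was lost without MI cDC2 replicate 1 (adjusted p = 0.0565) or 2 (0.0588). Cxcl16, a membrane-bound chemokine and scavenger receptor, rose 2.38-fold in cDC2 and was not called in cDC1 (log2 difference -1.33 ± 0.28, adjusted p = 0.00305).

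Of 20 T cell polarising cytokine genes, 1 was higher and 3 were lower (20.0%, beside 4.21% of all genes), with a median log2 difference of 0.43. The lower ones were Tnf, Ebi3 and Osm. Osm, coding for oncostatin M of the interleukin 6 family, had 0.925, 0.690, 0.928 and 1.23 CPM in MI cDC1, against 3.30, 4.83, 0.794 and 2.05 CPM in SS cDC1, and 189, 131 and 126 CPM in MI cDC2, against 62.6, 68.7, 94.7 and 110.1 CPM in SS cDC2. It rose 1.77-fold in cDC2 without overlap and fell in cDC1 from a low level (log2 difference -2.38 ± 0.45, edgeR adjusted p = 0.00103). Il18, made as an inactive precursor that inflammasomes cleave, fell 2.18-fold in cDC2 and was not called in cDC1 (log2 difference 1.47 ± 0.36, adjusted p = 0.0127). Among 26 chemoattractant receptor genes, S1pr1 and C3ar1 were lower (7.69%, median log2 difference -0.49, or -0.37 with genes at 0 reads set to 3 reads). S1pr1, the receptor that leads lymphocytes out of tissue, had 0.103, 1.18, 0.0928 and 0.410 CPM in MI cDC1, against 11.3, 29.1, 4.96 and 9.45 CPM in SS cDC1, and 4.80, 3.07 and 5.30 CPM in MI cDC2, against 12.5, 11.6, 8.54 and 6.27 CPM in SS cDC2. It was below SS in every MI library of both cell types, and the log2 difference was -3.76 ± 0.66 (adjusted p = 5.65e-04), with -4.89 without MI cDC1 replicate 2 and -3.10 without SS cDC1 replicate 2. C3ar1, the receptor of complement C3a (-1.61 ± 0.46, adjusted p = 0.0453), was lost in 8 fits, those without MI cDC1 replicate 2 or 4, MI cDC2 replicate 1 or 3, SS cDC1 replicate 1 or 2 or SS cDC2 replicate 1 or 4.

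Lipid and lysosome genes were called most often after cDC1 identity and NF-kB genes, with 4 higher and 4 lower of 34 (23.5%) and a median log2 difference of -0.02. Beside Cd36 and Pparg the higher ones were Npc2, which moves cholesterol out of lysosomes (0.75 ± 0.17, edgeR adjusted p = 0.00696), and the apolipoprotein gene Apoe (1.73 ± 0.41, adjusted p = 0.0107). Apoe averaged 29.4 ± 7.66 CPM in MI cDC1 and 23.7 ± 7.79 CPM in SS cDC1, and fell in cDC2, with 508, 215 and 614 CPM in MI cDC2, against 1456, 1333, 1233 and 759.9 CPM in SS cDC2. Lower, beside Mfge8 and Gas6, were the receptor gene Axl and the lysosomal protease gene Ctsd. Axl, which binds the Gas6 protein on dying cells, had 46.6, 25.4, 27.3 and 21.2 CPM in MI cDC1, against 91.2, 177, 137 and 122 CPM in SS cDC1, and 948, 566 and 709 CPM in MI cDC2, against 450.3, 630.1, 973 and 638 CPM in SS cDC2. It fell in cDC1 without overlap and was not called in cDC2 (log2 difference -2.27 ± 0.33, adjusted p = 4.50e-05). Ctsd (-1.60 ± 0.44, adjusted p = 0.0342) passed in 5 of the 15 fits that left out 1 library, those without MI cDC2 replicate 2, MI cDC1 replicate 3, SS cDC1 replicate 3 or 4 or SS cDC2 replicate 3, with adjusted p up to 0.152 in the others.

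Of 35 tissue repair and matrix genes, 1 was higher (Retnla) and 5 were lower (17.1%, median log2 difference -0.12, or -0.21 with genes at 0 reads set to 3 reads). Spp1, the matrix protein and cytokine osteopontin (chromosome 5, 104435118 to 104441050 plus strand), had 158, 146, 152 and 164 CPM in MI cDC1, against 242, 220.2, 246 and 236 CPM in SS cDC1, and 524, 440.5 and 592 CPM in MI cDC2, against 79.8, 71.8, 149.6 and 141 CPM in SS cDC2. Neither cell type's MI and SS libraries overlapped, and the rise in cDC2 was called (4.70-fold) while the lower level in MI cDC1 was not (adjusted p = 0.518). The log2 difference was -2.84 ± 0.67 (edgeR adjusted p = 0.0127). Tgfbi, an adhesive matrix protein gene induced by TGF-beta, rose 2.08-fold in cDC2 and was not called in cDC1 (-0.79 ± 0.16, adjusted p = 0.00214). Timp2, an inhibitor of matrix metalloproteinases, fell 5.72-fold in cDC1 and was not called in cDC2 (-2.28 ± 0.30, adjusted p = 1.15e-05). Tgm2, a crosslinking transglutaminase, fell in cDC1 from low levels (-2.01 ± 0.50, adjusted p = 0.0173). Hbegf, a growth factor gene close to 0 reads after MI, averaged 0.0246 CPM in MI cDC1 and 2.23 CPM in SS cDC1 (-3.82 ± 1.06, adjusted p = 0.0328). The call of Hbegf was lost in 8 fits, without MI cDC1 replicate 1, 3 or 4, MI cDC2 replicate 1 or 3, SS cDC1 replicate 2 or SS cDC2 replicate 1 or 2, and the value was -5.47 without MI cDC1 replicate 2 and -3.12 without SS cDC1 replicate 2.

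All 36 oxidative phosphorylation genes had a positive log2 difference, from 0.02 to 0.83, with a median of 0.49 beside -0.02 for all genes, but only 3 were called (8.33%). These were the electron carrier gene Cycs (0.83 ± 0.23, edgeR adjusted p = 0.0280), the complex III gene Uqcrfs1 (0.73 ± 0.20, adjusted p = 0.0272) and the complex II gene Sdhd (0.72 ± 0.20, adjusted p = 0.0313). Within cDC1 0 of the 36 were called and the median log2 change was 0.19, and within cDC2 1 fell, Cycs, and the median was -0.32. The call of Cycs was lost in 5 of 15 fits that left out 1 library (without MI cDC2 replicate 1, MI cDC1 replicate 4, SS cDC2 replicate 2 or SS cDC1 replicate 3 or 4). That of Uqcrfs1 was lost in 5 (without MI cDC2 replicate 1 or 2, MI cDC1 replicate 3, SS cDC1 replicate 2 or SS cDC2 replicate 3), and that of Sdhd in 8 (without MI cDC1 replicate 2 or 3, MI cDC2 replicate 1 or 3, SS cDC1 replicate 2, 3 or 4 or SS cDC2 replicate 2). Of 34 glycolysis and hypoxia genes, 2 were lower (5.88%, median -0.25), the stress gene Ddit4, an inhibitor of mTOR, and the vasodilator peptide gene Adm. Ddit4 fell 5.20-fold in cDC1, to 2.36, 3.06, 1.76 and 0.922 CPM in MI, against 15.3, 9.10, 8.04 and 9.74 CPM in SS (log2 difference -2.75 ± 0.44, adjusted p = 1.13e-04). Adm, at most 7.91 CPM in any library, had a log2 difference of -5.21 ± 1.51 (adjusted p = 0.0429), with -8.99 without MI cDC1 replicate 2 and -4.49 without SS cDC1 replicate 3, and passed in 3 fits, without MI cDC1 replicate 2 or SS cDC1 replicate 1 or 4. DESeq2 called 1 higher and 4 lower genes of this list. Hif1a was not called (-0.40 ± 0.26, adjusted p = 0.478).

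Of 30 immediate early genes, the transcription factor gene Egr1 (-2.01 ± 0.49, edgeR adjusted p = 0.0152) and the phosphatase gene Dusp2 (-1.39 ± 0.22, adjusted p = 7.77e-05) were lower (6.67%, beside 4.21% of all genes, median 0.11), and both fell in cDC1. DESeq2 called 1 higher and 3 lower. Egr1 missed the threshold without MI cDC2 replicate 1 (adjusted p = 0.0525). Among antigen presentation genes, 0 of 21 MHC class I genes were called (median 0.11) and 1 of 16 MHC class II genes was lower (6.25%, median -0.24), the lysosomal reductase gene Ifi30 (-0.69 ± 0.20, adjusted p = 0.0391). DESeq2 and limma-voom each called 3 lower MHC class II genes. Ifi30 passed in 3 fits, without MI cDC1 replicate 1, SS cDC2 replicate 3 or SS cDC1 replicate 4, and H2-Ab1 was at -0.29 ± 0.23 (adjusted p = 0.581). Of 24 cholesterol synthesis genes 0 were called (median 0.34). In edgeR 1 MHC class I gene and 6 cholesterol synthesis genes had an unadjusted p under 0.05, limma-voom called 0 in both lists and DESeq2 1 in each. Of 22 heat shock genes the collagen chaperone gene Serpinh1 was lower (4.55%, median 0.11). Of 24 endoplasmic reticulum stress genes the transcription factor gene Xbp1 was higher (4.17%, median 0.17, log2 difference 0.65 ± 0.19, adjusted p = 0.0474). In that list DESeq2 called 3 higher and 1 lower and limma-voom 0, and limma-voom called 0 of the heat shock genes. Xbp1 passed in 3 fits, without replicate 4 of MI cDC1, SS cDC1 or SS cDC2.

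Several of the largest negative differences belonged to genes with no read in MI cDC1. Of the 154 lower genes that fell in cDC1 only, 79 averaged under 1 CPM in MI cDC1 and 34 had 0 reads there. A fold against 0 reads is given as a lower limit, against 3 reads over the group, and reads amplified by PCR without molecular identifiers make such limits cover counting error only. Bcam, a laminin receptor of vessel walls and red cells (chromosome 7, 19756131 to 19771016 minus strand), had 0 reads in MI cDC1, at least 368-fold lower than the 12.1, 63.0, 29.1 and 13.6 CPM in SS cDC1, with 4.33, 4.56 and 3.66 CPM in MI cDC2, against 10.5, 21.6, 16.3 and 11.4 CPM in SS cDC2. It had no read in any MI cDC1 library and fell in cDC2 too. MI cDC1 was at least 194-fold lower than SS cDC1 for the junction gene Jam2, at least 137-fold lower for the endothelial phosphatase gene Ptprb and at least 122-fold lower for Gas6. It was at least 49.9-fold lower for the syndecan gene Sdc1, at least 31.7-fold lower for the docking protein gene Gab1, at least 7.08-fold lower for Creb5 and at least 4.82-fold lower for Abcb4. All 8 had 0 reads in MI cDC1. Gas6, whose product binds Axl and Mertk, had 0 CPM in MI cDC1, against 11.2, 13.1, 5.26 and 5.07 CPM in SS cDC1, and 2.54, 1.88 and 2.22 CPM in MI cDC2, against 6.57, 12.2, 6.35 and 7.21 CPM in SS cDC2 (edgeR adjusted p of the difference 1.32e-05). The adjusted p was 1.72e-05 for Bcam, 3.35e-05 for Gab1, 0.00762 for Jam2, 0.0160 for Sdc1, 0.0198 for Creb5, 0.00510 for Abcb4 and 0.0433 for Ptprb.

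With 1 to 3 reads in MI cDC1, the ratio of summed reads (SS over MI, with its exact 95% interval) was 485 (86.6 to 19171) for the growth factor gene Igf2 and 435 (77.8 to 17223) for Serpinh1. It was 38.3 (6.52 to 1544) for the myosin gene Myo1e, 40.4 (10.9 to 338) for Plscr4 and 32.6 (10.9 to 160.3) for A4galt, the synthase of a globoside. Myo1e had 127, 99.1 and 85.6 CPM in MI cDC2, against 29.1, 16.1, 42.2 and 41.4 CPM in SS cDC2, and A4galt had 14.3, 9.82 and 13.6 CPM in MI cDC2, against 1.96, 3.62, 1.42 and 0.842 CPM in SS cDC2. Both rose in cDC2 with no overlap, as did Angptl2, a secreted angiopoietin-like gene with 38.1, 21.2 and 29.5 CPM in MI cDC2, against 2.35, 3.09, 3.17 and 7.11 CPM in SS cDC2 (log2 difference -5.77 ± 1.27, edgeR adjusted p = 0.00570). Angptl2 was lost without SS cDC1 replicate 2 (adjusted p = 0.0776, log2 difference -4.34) and stood at -7.10 without MI cDC1 replicate 4. Adjusted p was 0.00474 for Myo1e, 2.88e-04 for A4galt, 5.87e-04 for Plscr4, 0.0443 for Igf2 and 0.0478 for Serpinh1.

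Single libraries decided several of these values. Without SS cDC1 replicate 2 the call of Creb5 was lost (edgeR adjusted p = 0.116, log2 difference -5.02 against -6.68). Without SS cDC1 replicate 3 that of Abcb4 was lost (adjusted p = 0.324, log2 difference -4.14 against -7.51). Ptprb passed in 4 of the 15 fits (without MI cDC2 replicate 1 or 2, SS cDC2 replicate 2 or SS cDC1 replicate 4), Igf2 in 5 (without MI cDC2 replicate 1 or 2, SS cDC1 replicate 1 or 4 or SS cDC2 replicate 1) and Serpinh1 in 3 (without MI cDC2 replicate 2, SS cDC2 replicate 2 or SS cDC1 replicate 4). Without MI cDC2 replicate 3 the fitted log2 difference of Ptprb was -2.86, against -8.99 in the full set, and that of Igf2 -1.76, against -6.61. Ptprb was at -9.88 without SS cDC2 replicate 2, and Igf2 at -8.24 without MI cDC1 replicate 3. Serpinh1, at -5.63 in the full set, ranged from -7.27 without MI cDC1 replicate 2 to -4.86 without MI cDC2 replicate 3, with -6.48 without SS cDC2 replicate 2 and -4.98 without SS cDC1 replicate 2. Fitted values of genes with so few reads are no bounds. Bcam stood at -8.78 without SS cDC1 replicate 2, against -9.47, and Gab1 at -7.04, against -7.88. Jam2 was at -10.68 without SS cDC2 replicate 2, against -9.15. Without MI cDC1 replicate 4 the values were -8.12 for Myo1e, -8.19 for Plscr4 and -10.12 for A4galt, which was -5.60 without SS cDC1 replicate 1.

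Markers of vessel cells moved with this group of genes. The sum of 11 mural markers was 2.05 to 5.66 CPM in MI cDC1 and 102 to 349 CPM in SS cDC1, with 7.64 to 13.2 CPM in MI cDC2 and 11.8 to 59.2 CPM in SS cDC2. Of these 11 markers 3 had a lower MI effect in cDC1 and 0 a higher one, and 4 had 0 reads in MI cDC1. The sum of 13 endothelial markers was 12.7 to 18.1 CPM in MI cDC1 and 89.6 to 372 CPM in SS cDC1, with 73.7 to 91.5 CPM in MI cDC2 and 96.7 to 274 CPM in SS cDC2, and 3 of those markers were called lower, 0 higher, and 4 had 0 reads in MI cDC1. The sum of 12 fibroblast markers, nearly all of it from Gsn, was 799 to 840.5 CPM in MI cDC1 and 888 to 1055 CPM in SS cDC1, with 1175 to 1502 CPM in MI cDC2 and 813 to 1101 CPM in SS cDC2. Without Gsn it was 1.39 to 2.88 CPM in MI cDC1 and 15.1 to 56.1 CPM in SS cDC1. In cDC2 the sum without Gsn was 36.0 to 54.6 CPM in MI and 44.3 to 72.6 CPM in SS. Gsn was the 1 fibroblast marker called lower (log2 difference -0.71, edgeR adjusted p = 0.00266). It averaged 1322 CPM in MI cDC2 and 928 CPM in SS cDC2, with 808 CPM in MI cDC1 and 930 CPM in SS cDC1. SS cDC1 replicate 2 was the highest library in the mural and endothelial sums, and SS cDC2 replicate 2 the highest of the cDC2 libraries. SS cDC1 replicate 2 was also the highest SS cDC1 library for 37 of the 79 genes under 1 CPM in MI cDC1. Replicate 1 was the highest for 24 of these genes, replicate 3 for 13 and replicate 4 for 5. With SS cDC1 replicate 2 left out, 488 genes were called, 201 higher and 287 lower. With the summed mural, endothelial and fibroblast markers as a covariate 118 genes were called (50 higher and 68 lower), of which 112 were among the 549. Gsn makes up most of the level of this combined sum too, but not most of its change in cDC1. Mural markers averaged 3.36 CPM in MI cDC1 and 190 CPM in SS cDC1, and endothelial markers 15.1 and 184 CPM. Both moved by more CPM than Gsn there. In cDC2 Gsn moved by more CPM than either. The combined sum parts MI from SS within cDC1, so marker level and MI cannot be told apart there. The part of vessel cells in these differences was not tested. Under this covariate 45 of the 82 genes named by rule lost the call. On the lower side these were Adm, Amica1, Angptl2, C3ar1, Ccl5, Cd209a, Clec10a, Creb5, Cxcl16, Ddit4, Ebi3, Egr1, Icosl, Ifi30, Igf2, Jam2, Myo1e, Osm, Plscr4, Ptprb, S1pr1, Sdc1, Serpinh1, Spp1, Stab1, Tgfbi, Tlr2, Tnfrsf9 and Tnfsf8. On the higher side they were Ak8, Clec9a, Cycs, Ear2, Fcrls, Ifi47, Il18, Mag, Nrg2, Plac8, Retnla, Sdhd, Slc12a2, Tlr11, Uqcrfs1 and Xbp1. Of the called list members beyond those 82, only Axl and Nfkbid kept the call. Apoe, Batf3, Cadm1, Ccl6, Cd86, Ctsd, Fgd6, Hbegf, Id2, Il1r2, Myd88, Naaa, Nfkb1, Npc2, Ptgs2, Rab7b, Sod2, Tgm2 and Tnfaip3 lost it. With the mural and endothelial sum alone, a covariate added after seeing the data, 47 of the 82 lost the call. A4galt, Lyz2, Ptger2, Timp2 and Tlr12 were among these 47, while Cd209a, Clec10a and Clec9a were called. Of the list members beyond the 82, only Apoe and Nfkbid were called under it. Among the genes called under both covariates were F11r, Pla2g7, Agpat3, Epcam, Timd4, Tnf, Nfkbia, Nfkbiz, Tnfsf9, Pparg, Bcam and Gas6.

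**Figure D5:**
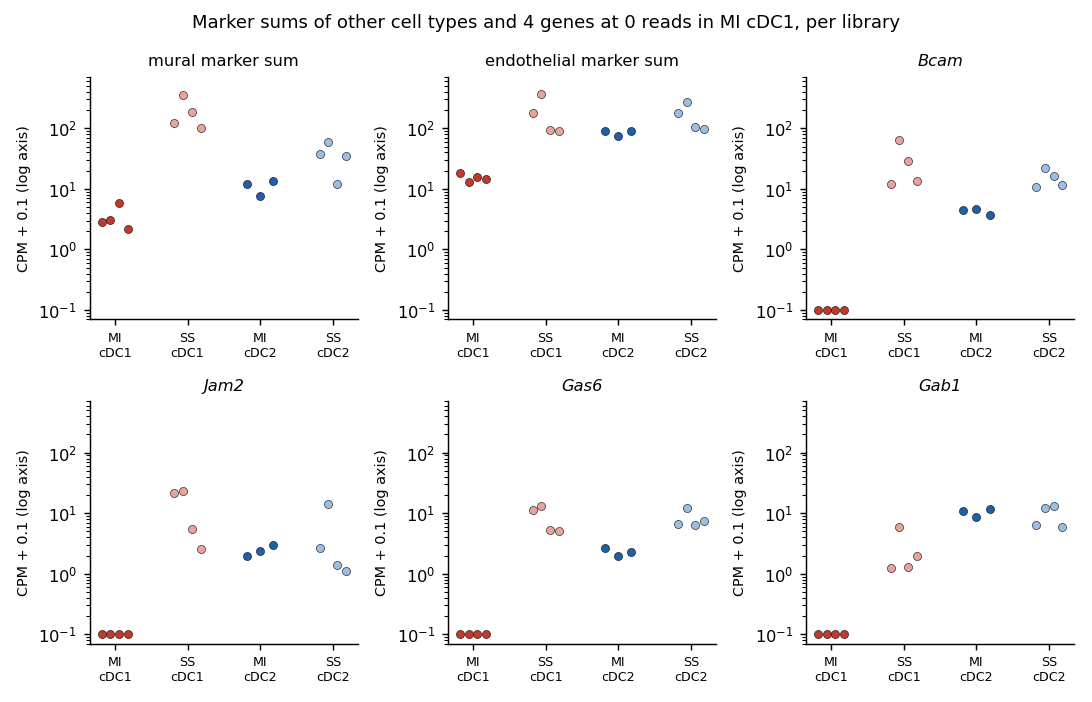
Summed CPM of mural and endothelial markers, and CPM of 4 genes with 0 reads in MI cDC1, 1 point per library on log axes after adding 0.1 CPM. The marker sums and Bcam, Jam2, Gas6 and Gab1 are all lowest in the MI cDC1 libraries, and the 4 genes sit at the floor of 0.1 there.

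The other large positive differences were falls in cDC2 of genes whose change in cDC1 was not called. Agpat3, an acyltransferase of phospholipid synthesis (chromosome 10, 78269178 to 78352489 minus strand), had 229.8, 215, 229 and 237 CPM in MI cDC1, against 198, 189, 197 and 181 CPM in SS cDC1, and 3.76, 2.78 and 4.91 CPM in MI cDC2, against 47.7, 33.9, 21.1 and 25.9 CPM in SS cDC2. It fell 8.39-fold in cDC2 without overlap, and its small rise in cDC1 was not called although no library overlapped (log2 difference 3.32 ± 0.27, edgeR adjusted p = 6.85e-10). Trpm2, a calcium channel opened by oxidative stress, averaged 41.2 ± 5.51 CPM in MI cDC1 and 43.3 ± 9.27 CPM in SS cDC1, and had 0.0941, 0.992 and 0.193 CPM in MI cDC2, against 10.1, 4.68, 6.78 and 6.74 CPM in SS cDC2. Its log2 difference was 3.97 ± 0.57 (adjusted p = 2.57e-05), and 5.45 without MI cDC2 replicate 2. Gpr65, a receptor for protons, fell 3.53-fold in cDC2 and was not called in cDC1 (log2 difference 2.38 ± 0.30, adjusted p = 7.91e-06). Slc12a2, an ion cotransporter, had 6.97, 14.9 and 15.4 CPM in MI cDC2, against 266, 118, 71.0 and 78.1 CPM in SS cDC2 (log2 difference 3.99 ± 0.71, adjusted p = 8.03e-04). Ptger2, the prostaglandin E2 receptor EP2, fell 6.73-fold in cDC2 (3.67 ± 0.67, adjusted p = 7.14e-04), and Ak8, an adenylate kinase, 5.80-fold (4.07 ± 0.91, adjusted p = 0.00557).

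The calls of 3 further genes on this side were lost without single libraries. Rnf144a, a ubiquitin ligase gene, fell 13.5-fold in cDC2 (log2 difference 3.86 ± 0.95, edgeR adjusted p = 0.0127) and missed the threshold without MI cDC2 replicate 1 (0.0533). Nrg2, a neuregulin gene, averaged 15.6 ± 4.18 CPM in MI cDC1 and 17.2 ± 2.18 CPM in SS cDC1, and had 2 reads in MI cDC2 and 60 in SS cDC2, a ratio SS over MI of 23.7 (6.27 to 199.9) with its exact 95% interval. Its call (adjusted p = 0.0283) was lost without MI cDC2 replicate 1 (0.113) or 3 (0.0996) or MI cDC1 replicate 2 (0.0531), and the fitted log2 difference, 4.18, was 6.90 without MI cDC2 replicate 2. Mag, known as a myelin glycoprotein gene, fell 12.4-fold in cDC2, and its call (adjusted p = 0.00758) rests on MI cDC1 replicate 1, which held the 9 reads of all cDC1 libraries together. Without that library the fitted log2 difference was 3.63 and no longer called, against 7.98 with it, and it was 9.80 without MI cDC2 replicate 3.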

How the data were processed

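RNA from sorted heart cells of Balb/c mice was amplified (SMART-Seq v4, 4 ng input) and sequenced as single reads of 75 bases, per the labels' protocols. The deposited files hold the authors' raw read counts per gene. FastQC 0.11.4, Trimmomatic 0.35, TopHat2 2.1.0, SAMtools 0.1.18 and the build mm10 are named, per the submitters' processing notes. No source used here gives the read counter, its gene models or whether strand was used, so near-identical or overlapping genes (Lyz1 and Lyz2, the Cd209, Ifit and H2 families) are uncertain. The 5 rows that name no gene were left out of all 24421-gene tables and held 6.42% to 14.9% (no feature) and 0.956% to 1.21% (ambiguous) of the counted reads.

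Counts were analysed in R 4.3.3 with edgeR 4.0.16 (filterByExpr with a minimum count of 10, TMM factors, robust quasi-likelihood test, 1 mean for each of the 8 groups of all 31 libraries, which share the estimate of spread). The difference of the MI effects was tested in 13039 genes with Benjamini-Hochberg adjustment and a threshold of 0.05. CPM uses TMM-scaled totals, and the standard error comes from the test statistic. Alternatives used limma 3.58.1 and DESeq2 1.42.0. In simulated counts with known changes 2 of 77 calls were false. Those counts were drawn independently per library with the spread fitted by the same model. They held no admixed cells and no effect shared between libraries, so they do not give the share of false calls in the real data. Depth was 9389786 to 16531349 reads in genes per library, and no 2 replicates agreed within counting noise. Named genes are the 14 with the largest difference in each direction among called genes with at least 10 CPM in the highest group. Up to 3 called genes of each list were added. The 12 with the smallest adjusted p were added by a rule set after the values were seen. The members and the 25 lists were chosen with earlier results of these data known. Other list members named, called or not, were chosen after their values were seen. Promoters were read from the RefSeq table of GRCm38.p6.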

Additional observations from a re-analysis of the deposited data

Results flagged for a closer look

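Among the named genes, 1 library stood far from the other 3 of its group in 22 of 237 combinations of gene and group. For normally spread values chance gives about 5% of them, a share that does not hold for counts near 0. A4galt, Adm, Igf2, Mag, Myo1e, Plscr4, Serpinh1 and Stab1 had 0 reads in the other 3 MI cDC1 libraries, so any read there was flagged. The 3 MI cDC2 libraries were too few to be looked at in this way. In MI cDC1 the far library was the highest for A4galt in replicate 4 (0.307 CPM), Adm in replicate 2 (0.591 CPM), Ccl5 in replicate 1 (27.7 CPM), Clec10a in replicate 1 (0.617 CPM), Igf2 in replicate 3 (0.0928 CPM), Mag in replicate 1 (0.925 CPM), Myo1e in replicate 4 (0.102 CPM), Plscr4 in replicate 4 (0.205 CPM), Retnla in replicate 3 (3.34 CPM), Serpinh1 in replicate 2 (0.0986 CPM) and Stab1 in replicate 3 (0.186 CPM). In SS cDC1 the far library was the highest for Abcb4 in replicate 3 (1.59 CPM), Gab1 in replicate 2 (5.88 CPM) and Igf2 in replicate 2 (24.5 CPM). In SS cDC2 the far library was the highest for Ccl5 in replicate 3 (32.9 CPM), Ccl7 in replicate 2 (21.4 CPM), Ctnnd1 in replicate 4 (53.1 CPM), Gas6 in replicate 2 (12.2 CPM), Jam2 in replicate 2 (14.1 CPM) and Nfkbiz in replicate 4 (992 CPM) and the lowest for Clec10a in replicate 1 (168 CPM) and Nfkbia in replicate 1 (1144 CPM).

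The effect of MI differed between cDC1 and cDC2 in the test of the difference itself (edgeR, adjusted p under 0.05) for each of the 82 named genes, given here as log2 differences of cDC1 minus cDC2. In genes that fell in cDC1 and rose in cDC2 the difference was -7.22 for A4galt, -7.51 for Abcb4, -1.63 for Ccnd1, -2.01 for Ctnnd1, -3.56 for Epcam, -3.99 for F11r, -5.75 for Htra3, -3.34 for Mfge8, -6.48 for Myo1e, -2.38 for Osm, -3.74 for Timd4 and -2.32 for Tnfsf9. In genes that fell in cDC1 and were not called in cDC2 the difference was -5.21 for Adm, -3.34 for Ccl5, -2.77 for Cd209a, -2.95 for Clec10a, -6.68 for Creb5, -2.75 for Ddit4, -1.39 for Dusp2, -0.96 for Ebi3, -2.01 for Egr1, -7.88 for Gab1, -1.74 for Icosl, -6.61 for Igf2, -9.15 for Jam2, -1.62 for Nfkbia, -2.89 for Nfkbiz, -5.79 for Plscr4, -8.99 for Ptprb, -3.76 for S1pr1, -5.63 for Serpinh1, -4.71 for Stab1, -2.28 for Timp2, -1.19 for Tlr2, -2.87 for Tnf and -3.74 for Tnfsf8. In genes that rose in cDC2 and were not called in cDC1 the difference was -5.77 for Angptl2, -1.33 for Cxcl16, -0.69 for Ifi30, -2.84 for Spp1, -0.79 for Tgfbi and -5.12 for Tnfrsf9. In genes that fell in both cell types and more in cDC1 the difference was -9.47 for Bcam, -7.69 for Gas6 and -6.20 for Sdc1. In 9 of these 82 genes a group had 0 reads, so that their values here are fitted values and no bounds. With 3 reads in place of 0 the difference was -6.71 for Bcam, -5.07 for Gas6, -3.52 for Sdc1, -6.63 for Jam2, -6.35 for Ptprb, -5.16 for Gab1, -3.92 for Creb5, -4.69 for Abcb4 and 5.44 for Mag. In genes with a lower MI effect in cDC1 and no call in either cell type the difference was -0.61 for Amica1 and -1.61 for C3ar1. In genes that rose in cDC1 and fell in cDC2 the difference was 3.32 for Ccl7, 3.59 for Dpy19l3, 1.40 for Irf7, 3.74 for Lpar1, 3.08 for Pla2g7, 2.62 for Pparg, 2.05 for Sgms1 and 1.69 for Zbp1. In genes that fell in cDC2 and were not called in cDC1 the difference was 3.32 for Agpat3, 4.07 for Ak8, 2.39 for Ccl2, 4.70 for Clec9a, 0.83 for Cycs, 3.46 for Ear2, 3.99 for Fcrls, 2.38 for Gpr65, 1.47 for Il18, 7.98 for Mag, 4.18 for Nrg2, 1.45 for Oasl1, 3.67 for Ptger2, 5.27 for Retnla, 3.86 for Rnf144a, 3.99 for Slc12a2, 2.23 for Tlr11, 3.43 for Tlr12, 3.97 for Trpm2 and 0.65 for Xbp1. In genes that rose in cDC1 and were not called in cDC2 the difference was 0.85 for Ifi47 and 3.96 for Plac8. In genes that fell in both cell types and more in cDC2 the difference was 2.89 for Cd36, 2.94 for Lyz1 and 1.45 for Lyz2. In genes with a higher MI effect in cDC1 and no call in either cell type the difference was 0.72 for Sdhd and 0.73 for Uqcrfs1.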

How the results depend on the processing

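The count of 549 genes, 209 higher and 340 lower in cDC1, stayed within 1.5 times under RLE factors (562), upper-quartile factors (558), no filter on low counts (487), a stricter filter (570), a fit of the 15 libraries alone (531), limma-voom (426), the share of reads in no feature as a covariate (643) and SS libraries 2 and 3 only (577) or 1 and 4 only (397). DESeq2 called 832 (310 higher and 522 lower), the cause of which was not tested. With the mural, endothelial and fibroblast marker sum, mostly Gsn, as a covariate 118 were called (50 higher and 68 lower). With the mural and endothelial sum, added after seeing the data, 108 were called (51 higher and 57 lower). Without 1 library at a time 384 to 551 were called (143 to 225 higher, 241 to 345 lower), the fewest without MI cDC2 replicate 1. With the replicate number as a block the counts were 730 (within state) and 702 (across states). The labels do not say what a shared number marks, so the main fit did not pair samples by it. Deviations of same-numbered cDC1 and cDC2 libraries correlated at 0.0283 to 0.154, and 3 of 7 exceeded 0.1. Those of other numbers correlated at -0.15 to 0.058. All 7 cDC1 libraries with a same-numbered cDC2 library, and 6 of 7 cDC2 libraries, correlated best with their own number. The main fit leaves out any such tie between same-numbered libraries. The summed cDC1 markers in SS cDC2 averaged 993 CPM on plain library totals. None of the 82 named genes changed sign under any setting, 29 were called under all of them, 23 lost the call without at least 1 library and 52 lost it under at least 1 of the 14 other settings. The marker covariates ended 45 and 47 calls, as listed in the report. Limma-voom ended 21 (Abcb4, Adm, Angptl2, C3ar1, Cd209a, Clec10a, Creb5, Fcrls, Ifi47, Igf2, Jam2, Myo1e, Nrg2, Osm, Plscr4, Ptprb, Retnla, Sdc1, Serpinh1, Stab1 and Xbp1). SS libraries 1 and 4 only ended 20 (Abcb4, Adm, Amica1, Angptl2, C3ar1, Ccl5, Creb5, Cycs, Ebi3, Fcrls, Ifi30, Igf2, Il18, Mag, Nrg2, Ptprb, Sdhd, Serpinh1, Uqcrfs1 and Xbp1) and SS libraries 2 and 3 only 10 (C3ar1, Ifi47, Igf2, Mag, Nrg2, Oasl1, Ptprb, Retnla, Serpinh1 and Spp1). The fit of the 15 libraries alone ended 11 (Adm, C3ar1, Ccl5, Creb5, Ebi3, Fcrls, Ifi30, Igf2, Mag, Serpinh1 and Stab1), no filter on low counts 7 (Amica1, C3ar1, Fcrls, Igf2, Ptprb, Serpinh1 and Xbp1) and the share of reads in no feature 1 (Adm). RLE factors, upper-quartile factors, DESeq2 and the stricter filter ended 0 of those they tested. The block within state ended 5 (Adm, C3ar1, Igf2, Ptprb and Stab1) and the block across states 3 (C3ar1, Igf2 and Ptprb). Of the 30 immediate early genes, with 0 higher and 2 lower calls, the block within state called 3 higher and 6 lower and the block across states 1 higher and 4 lower. The block within state and across states called 5 and 6 oxidative phosphorylation genes higher, against 3, and 2 and 3 endoplasmic reticulum stress genes, against 1. The block within state called 1 higher and 2 lower heat shock genes, against 1 lower, and 2 lower MHC class II genes, against 1, and both blocks called 1 MHC class I and 1 cholesterol synthesis gene, against 0. Limma-voom called 2 lower cDC2 identity genes, against 4, 1 chemoattractant receptor gene, against 2, 0 higher and 3 lower tissue repair and matrix genes, against 1 and 5, and 3 lower shared dendritic cell genes, against 1. In counts of 13039 genes simulated from the same model, 18 of 100 genes changed 2-fold and 57 of 100 changed 4-fold were recovered at the depth of these libraries.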
